A study of Mus musculus with 6 samples.

Results

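The nuclear genes for proteins of the mitochondrial ribosome, named Mrpl for the large and Mrps for the small subunit, were followed in macrophages given a saturated fatty acid. They were taken by name (Mrpl or Mrps, a number and at most 1 further letter), with a mean of at least 1 TPM over the 6 libraries. TPM is a transcript level scaled by transcript length and by the library's total, so that it is a share of the library. The name was carried by 77 of the 36333 genes listed, 48 Mrpl and 29 Mrps, and all 77 reached the limit. Levels came from sequencing of polyadenylated RNA from wild type C57BL/6 bone marrow derived macrophages, grown for 7 days in M-CSF (10 ng/mL), the growth factor that turns marrow cells into macrophages. Each of 3 vehicle samples received an equivalent volume of ethanol, and each of 3 stearic acid samples received 100 µM stearic acid, both for 24 h. The comparison asks how transcript levels differ after exposure to the fatty acid, in a series about dietary saturated fat, inflammasome activation and IL-1β in the lung.

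Mitochondria have a ribosome of their own, which translates the few mRNAs encoded by mitochondrial DNA into core subunits of the respiratory chain and the ATP synthase. Its ribosomal RNAs come from mitochondrial DNA, whereas its proteins are encoded in the nucleus, made in the cytosol and imported. Some of these proteins have counterparts in bacterial ribosomes and others are found only in mitochondria, where many take the place of lost ribosomal RNA.

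The samples carried the transcripts of macrophages: the 9 macrophage markers checked, among them Lyz2, Csf1r and Adgre1, summed to 33226 to 34112 TPM in vehicle and to 23588 to 29234 TPM with stearic acid (9 of 9 had a mean of at least 1 TPM, 5 fell and Cd68 rose). In bulk RNA of this kind, fewer cells of a type and less RNA per cell cannot be told apart. Of the markers checked for neutrophils and progenitors, dendritic cells, lymphoid, erythroid and stromal cells, only the neutrophil gene S100a8 had a mean of at least 1 TPM. Summed neutrophil and progenitor markers were at 2.55 to 4.75 TPM in vehicle and 6.54 to 7.22 TPM with stearic acid. Most of that sum was S100a8, at 4.51, 3.35 and 2.14 TPM in vehicle replicates 1 to 3 and 6.24, 6.94 and 6.06 TPM in stearic acid replicates 1 to 3 (log2 change 0.81 with an SE of 0.18, adjusted p = 0.016 by limma), which did not pass without vehicle replicate 2 (0.069) or the filter (0.075). The other 9 markers of that list were each below 1 TPM in every library. The part of these genes in the results below was not tested. The lymphoid markers Cd3e, Cd3d and Nkg7 were listed at 0 in every library. Depth, estimated from the steps between low values, was about 58.2 to 80.8 M reads (or pairs of reads) in each library. The lowest member in any library, Mrpl17 at 7.35 TPM in vehicle replicate 3, then corresponds to about 140.0 reads per kilobase of transcript, so that counting error adds to its spread. Nothing in the labels says whether the 3 samples of a group came from separate mice or cultures. The p-values set the difference between the group means against the spread within the groups. Whether that spread is technical or has other reasons is therefore not known.

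Levels of the 77 genes spanned a range of 23.5-fold, from a mean over the 6 libraries of 9.03 TPM for Mrps10 to 212 TPM for Mrpl33, with a median of 44.0 TPM. The 5 highest genes of the large subunit were Mrpl33 (212 TPM), Mrpl42 (153 TPM), Mrpl28 (123 TPM), Mrpl12 (121 TPM) and Mrpl13 (109 TPM). The 5 highest of the small subunit were Mrps21 (182 TPM), Mrps18c (129.95 TPM), Mrps18a (105 TPM), Mrps16 (86.04 TPM) and Mrps15 (81.5 TPM). Members of 1 particle were thus present at very unequal transcript levels. The 2 lowest genes, Mrps10 and Mrpl17 (9.21 TPM), lay well above the limit of 1 TPM, and no gene of this name lay below it.

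With stearic acid, 20 of the 77 genes rose and none fell, or 26.0% and 0%, while of all genes tested 12.8% rose and 11.9% fell. The increases were mostly small: 4 genes, Mrps18b, Mrpl38, Mrps28 and Mrps6, reached 1.5-fold in mean TPM. The test was limma's moderated test on log2(TPM + 1) over the 11551 genes whose mean reached 1 TPM, with Benjamini-Hochberg adjustment at 0.05. In either direction 24.7% of all genes tested changed. The median log2 fold change was 0.15 over the members and -0.03 over all genes tested. It was above 0 in 58 of the 77 genes, against 45.7% of all genes tested. At an unadjusted p under 0.05, 33 members were higher and 0 lower.

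How many members passed depended on the libraries included and on the scaling. The rises numbered 5, 4 and 2 when vehicle replicate 1, 2 or 3 was omitted, 35, 9 and 3 when stearic acid replicate 1, 2 or 3 was omitted, and 5 with no filter on low values. In the same order of left-out libraries the share of all genes that rose was 5.92%, 3.32%, 4.21%, 19.2%, 9.17% and 5.06%, and with no filter it was 3.11%. On omitting vehicle replicate 3 or stearic acid replicate 3, the share of members that rose was below that of all genes. Under the other omissions it was above. RPKM, median-of-ratios scaling and quantile normalization gave 21, 16 and 15 rises, while 17.2%, 15% and 14.5% of all genes rose. No member fell in any of these fits. Mrpl38 and Mrps6 passed whichever of the 6 libraries was omitted.

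**Figure D1:**
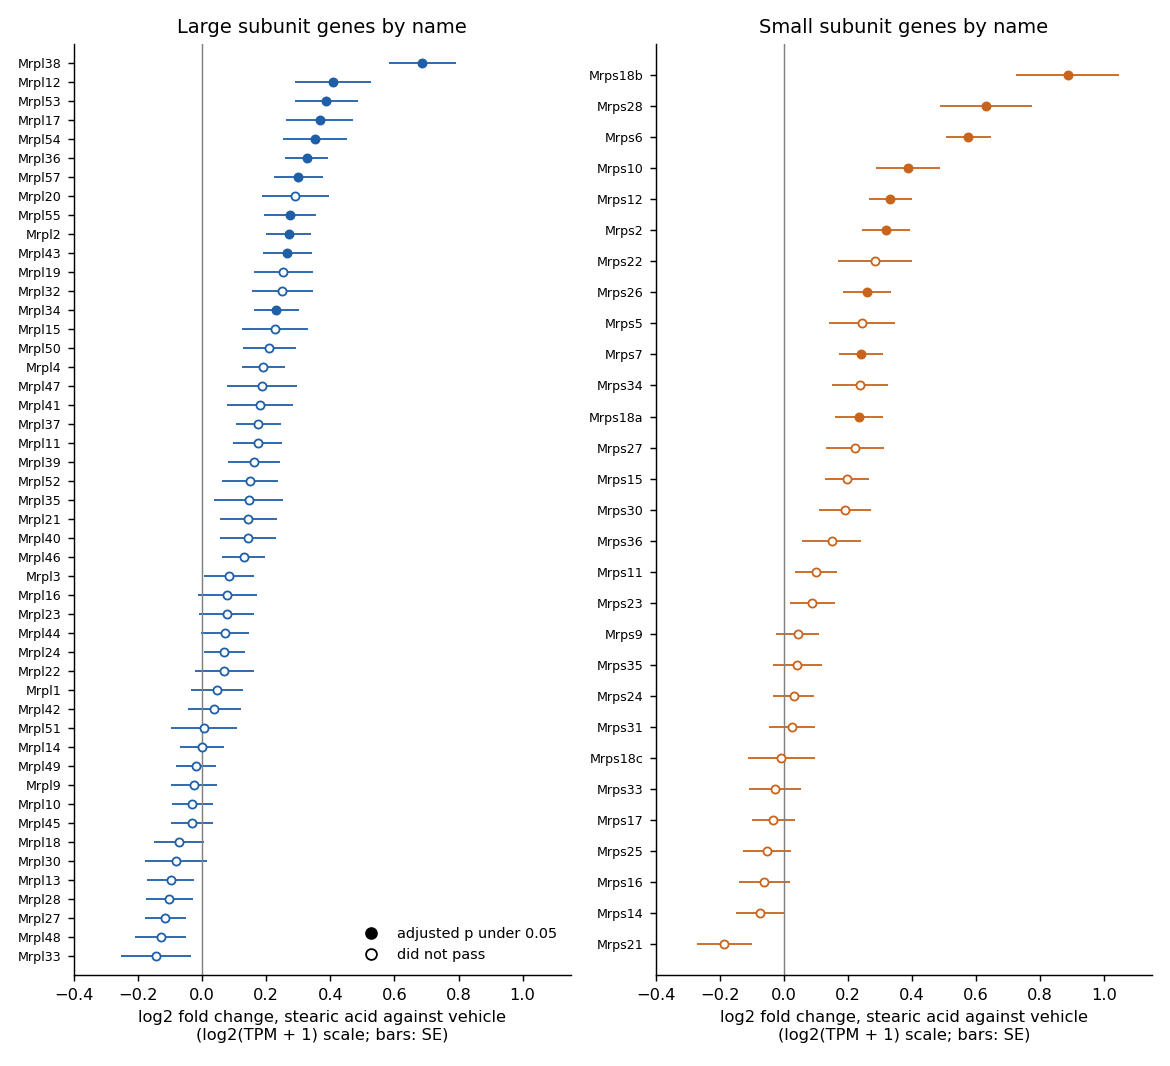
Log2 fold change of each gene with stearic acid against vehicle on the log2(TPM + 1) scale (horizontal axis), large subunit genes on the left and small subunit genes on the right, ordered by size. Points are estimates from 3 libraries per group with bars of 1 SE, and filled points passed at an adjusted p of 0.05; the 20 filled points all lie to the right of 0, led by Mrps18b at 0.89 and Mrpl38 at 0.69.

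The largest increase was in Mrps18b, a small subunit protein related to a bacterial one (NCBI gene 66973, chr17:35910380-35916440, GRCm38). Its level was 42.6, 43.8 and 37.9 TPM in vehicle replicates 1 to 3 and 58.7, 98.8 and 79.5 TPM in stearic acid replicates 1 to 3. Every stearic acid library lay above every vehicle library, and replicate 1 rose least (mean 41.4 ± 3.09 to 78.99 ± 20.02 TPM, SD, n = 3 per group; log2 change 0.89 with an SE of 0.16, adjusted p = 0.0086 by limma). Omitting vehicle replicate 2 or 3 lost the call (adjusted p of 0.055 by limma in both fits), as did omitting the filter (0.052).

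Mrpl38 encodes a protein of the central protuberance of the large subunit and has no bacterial counterpart (gene 60441, chr11:116131817-116138868). It was at 25.2, 23.6 and 24.1 TPM in vehicle replicates 1 to 3 and 33.9, 45.4 and 40.8 TPM in stearic acid replicates 1 to 3. The groups did not overlap, and the vehicle libraries lay close together (24.3 ± 0.861 to 40.0 ± 5.79 TPM; log2 change 0.69 with an SE of 0.10, adjusted p = 0.0044 by limma). Mrps28, a small subunit protein (gene 66230, chr3:8802146-8923857), was at 32.2, 33.2 and 26.9 TPM in vehicle replicates 1 to 3 and 38.7, 58.7 and 48.5 TPM in stearic acid replicates 1 to 3. Its stearic acid libraries were all higher but spread widely (log2 change 0.63 with an SE of 0.14, adjusted p = 0.017 by limma). The call was lost when vehicle replicate 2 (adjusted p = 0.064 by limma), vehicle replicate 3 (0.081) or stearic acid replicate 3 (0.054) was omitted, and without the filter (0.072).

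Mrps6, the counterpart of a bacterial protein of the small subunit platform, had the smallest p of the 77 (gene 121022, chr16:92058336-92112227). It was at 52.4, 50.4 and 50.2 TPM in vehicle replicates 1 to 3 and 71.2, 80.5 and 78.2 TPM in stearic acid replicates 1 to 3. The stearic acid libraries lay close together and well above vehicle (51.01 ± 1.22 to 76.6 ± 4.83 TPM; log2 change 0.58 with an SE of 0.07, adjusted p = 0.0019 by limma). Slc5a3, a myo-inositol transporter on the same strand, overlaps the span of Mrps6 and has 159 exon bases in common with it in GENCODE M21. Gm49711, another coding gene model on that strand, has 305 exon bases in common with Mrps6, and no value of it was used here. Slc5a3 rose by a like amount, from 6.10 ± 0.388 to 9.58 ± 0.950 TPM (log2 0.57, adjusted p = 0.0056 by limma), and reads of the common bases cannot be told apart.

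**Figure D2:**
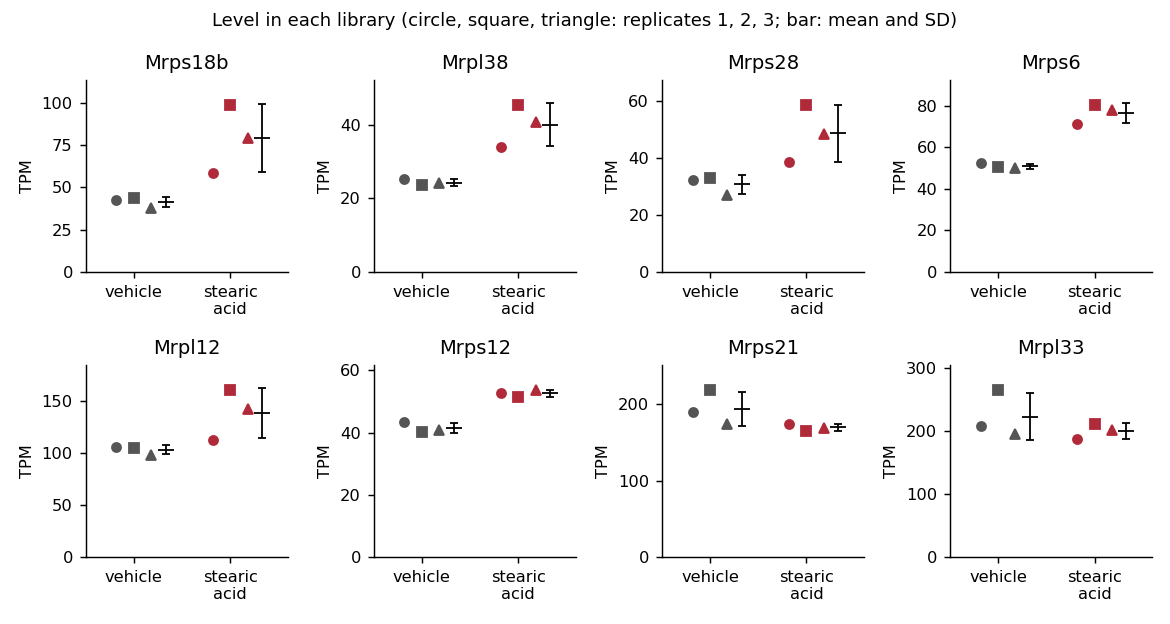
TPM in each library (vertical axes, from 0) for 8 mitoribosomal genes in vehicle (grey) and stearic acid (red); circles, squares and triangles are replicates 1, 2 and 3, and the bar beside them is the mean with its SD. The first 6 genes rose and their groups do not overlap; Mrps21 and Mrpl33 did not pass.

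Increases in the next genes of the large subunit were smaller. Mrpl12, a protein of the flexible stalk that receives translation factors, was at 106, 105 and 98.3 TPM in vehicle replicates 1 to 3 and 113, 160.5 and 143 TPM in stearic acid replicates 1 to 3. Replicate 1 of the treated group lay just above vehicle while the other 2 were clearly higher (log2 change 0.41 with an SE of 0.12, adjusted p = 0.036 by limma). Mrpl53, a protein found only in mitochondrial ribosomes, rose from 37.8 ± 2.95 to 49.9 ± 5.78 TPM (log2 0.39). In GENCODE M21 it has 695 exon bases, as many as its longest coding transcript holds, in common with Gm42688, a coding gene model on the same strand, and reads of these bases cannot be told apart even where strand is used. Mrpl12 was lost when any 1 vehicle library or stearic acid replicate 3 was omitted (adjusted p of 0.083 to 0.13 by limma), with median-of-ratios scaling (0.056) or quantile normalization (0.050, just above the threshold), or without the filter (0.11). Mrpl53 was lost under the same 4 omissions (0.051 to 0.098) and without the filter (0.074).

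Mrpl36, which has a small zinc-binding counterpart in bacteria, was at 33.8, 36.9 and 34.6 TPM in vehicle replicates 1 to 3 and 44.04, 44.7 and 44.1 TPM in stearic acid replicates 1 to 3. Its stearic acid libraries were almost equal (log2 change 0.33 with an SE of 0.07, adjusted p = 0.013 by limma). Its call was lost on omitting vehicle replicate 1 (adjusted p = 0.064 by limma), vehicle replicate 3 (0.058) or stearic acid replicate 3 (0.060). The other large subunit genes that rose were Mrpl17 (log2 0.37), Mrpl54 (log2 0.35), Mrpl57 (log2 0.30), Mrpl55 (log2 0.27), Mrpl2 (log2 0.27), a protein next to the catalytic centre, Mrpl43 (log2 0.27) and Mrpl34 (log2 0.23). Of these 7, all but Mrpl34 passed when stearic acid replicate 1 was omitted, and none did on omitting any of the other 5 libraries. Without the filter none of the 7 passed (adjusted p of 0.055 to 0.10 by limma). Mrpl54 and Mrpl55 were also lost with median-of-ratios scaling (0.062 and 0.0505), and Mrpl54, Mrpl55 and Mrpl34 with quantile normalization (0.0533, 0.0522 and 0.0535).

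In the small subunit, Mrps12, a protein of the decoding centre, was at 43.4, 40.3 and 40.9 TPM in vehicle replicates 1 to 3 and 52.8, 51.2 and 53.6 TPM in stearic acid replicates 1 to 3. The 3 treated libraries were nearly equal and all above vehicle (log2 change 0.33 with an SE of 0.07, adjusted p = 0.012 by limma). Its call was lost on omitting vehicle replicate 3 (adjusted p = 0.055 by limma) or stearic acid replicate 3 (0.061). Mrps10, a protein of the small subunit head and the lowest member, was at 7.53, 7.98 and 7.51 TPM in vehicle replicates 1 to 3 and 8.995, 11.7 and 10.5 TPM in stearic acid replicates 1 to 3. Its groups did not overlap (log2 change 0.39 with an SE of 0.10, adjusted p = 0.025 by limma), and of the 6 omissions only that of stearic acid replicate 1 kept the call. The other 5 gave an adjusted p of 0.052 to 0.092 by limma, and the fit without the filter gave 0.082.

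Mrps2 (log2 0.32), Mrps26 (log2 0.26) and Mrps7 (log2 0.24), which helps to build the small subunit head, also rose. Each of them passed on omitting stearic acid replicate 1, and Mrps2 also on omitting replicate 2 of that group. None of the 3 passed under the other omissions, and without the filter Mrps26 and Mrps7 did not pass (adjusted p of 0.074 and 0.0595 by limma).

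Of the 20 genes that rose, 20 had no overlap between the groups. Over the 77 members the groups did not overlap in 32 genes that were higher and in 3 that were lower, and they overlapped in 42. Among all genes tested 22.8% were higher without overlap and 21.7% were lower without overlap. The 3 members lower in every treated library were Mrps21, Mrpl27 and Mrpl13, and none of them passed.

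Of the genes below vehicle, Mrps21, a small subunit protein with a bacterial counterpart, had the lowest estimate. It was at 189, 218.1 and 174.5 TPM in vehicle replicates 1 to 3 and 174.5, 165.2 and 169.3 TPM in stearic acid replicates 1 to 3 (log2 change -0.19 with an SE of 0.09, adjusted p = 0.14 by limma). Its groups were all but touching, with vehicle replicate 3 and stearic acid replicate 1 equal after rounding. Vehicle replicate 2 stood above the other 5 libraries, as it also did for Mrpl33, at 209, 265 and 196 TPM in vehicle replicates 1 to 3 and 188, 212 and 201 TPM in stearic acid replicates 1 to 3 (log2 change -0.14 with an SE of 0.11, adjusted p = 0.35 by limma). Mrpl48 (log2 -0.13), Mrpl27 (log2 -0.11), Mrpl28 (log2 -0.10) and Mrpl13 (log2 -0.10) followed, with limma-adjusted p of 0.21 to 0.34. Among the most abundant members, Mrpl42 (log2 0.04, SE 0.08), Mrps16 (log2 -0.06, SE 0.08) and Mrps15 (log2 0.20, SE 0.07) did not pass either. Mrps15 was nevertheless higher in all 3 treated libraries, at 71.9, 76.7 and 78.99 TPM in vehicle replicates 1 to 3 and 82.4, 88.97 and 90.1 TPM in stearic acid replicates 1 to 3 (adjusted p = 0.068 by limma).

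Mrps18a, Mrps18b and Mrps18c are related genes, each descended from the gene of 1 bacterial protein, and their products sit at different places in the mammalian ribosome. Their estimates were unequal. Mrps18a was at 100.1, 100.3 and 88.9 TPM in vehicle replicates 1 to 3 and 107, 117 and 116 TPM in stearic acid replicates 1 to 3 and rose slightly (log2 change 0.23 with an SE of 0.07, adjusted p = 0.049 by limma). Mrps18c was at 119, 153 and 120.4 TPM in vehicle replicates 1 to 3 and 119, 134 and 134 TPM in stearic acid replicates 1 to 3, with overlapping groups (log2 change -0.01 with an SE of 0.10, adjusted p = 0.96 by limma). Mrps18b rose by log2 0.89, as given above, so that the order of estimates was Mrps18b, Mrps18a and Mrps18c; differences between the 3 genes were not tested. Mrps18a passed on omitting stearic acid replicate 1 but under none of the other 5 omissions (adjusted p of 0.074 to 0.18 by limma), and it missed the threshold with RPKM (0.051), median-of-ratios scaling (0.068), quantile normalization (0.064) and no filter (0.086). The estimate of Mrps18c turned positive without vehicle replicate 2 (log2 0.11).

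By name, 11 of 48 large subunit genes and 9 of 29 small subunit genes rose, against 12.8% of all genes tested. The median log2 fold change was 0.15 for the large (range -0.14 to 0.69) and 0.19 for the small subunit (range -0.19 to 0.89). The large subunit median was 0.09 without stearic acid replicate 2, and over the 6 omissions it ran from 0.09 to 0.20, while the small subunit median ran from 0.15 to 0.24. Names and places in the particle differ for 3 genes. The products of Mrps18a and Mrps30 are part of the large subunit in structures of the mammalian mitoribosome, and that of Mrps36 was later assigned to a metabolic enzyme complex instead. Sorted by place, 12 of 50 large and 8 of 26 small subunit genes rose, and both medians were 0.15. The share that rose was 22.9% of large and 31.0% of small subunit genes by name, and 24.0% and 30.8% by structure. Sorting by structure thus brought the medians together but left the shares apart, and the difference between the subunits was not tested. On omitting vehicle replicate 1, 2 or 3 the counts by name were 1, 2 and 1 in the large and 4, 2 and 1 in the small subunit. On omitting a stearic acid library, in the same order, they were 20, 4 and 1 in the large and 15, 5 and 2 in the small. Of all genes, 5.92%, 3.32% and 4.21% rose over the vehicle omissions and 19.2%, 9.17% and 5.06% over the stearic acid ones. The large subunit share was below this without vehicle replicate 1 or 3 and without stearic acid replicate 2 or 3. The small subunit share was below it without vehicle replicate 3.

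As a share of the library, members summed to 4022, 4295 and 3859 in vehicle replicates 1 to 3 and 4138, 4638 and 4453 in stearic acid replicates 1 to 3 (in TPM). The treated mean was higher by 8.65%, and treated replicate 1 lay below vehicle replicate 2. The large subunit genes summed to 2531, 2697 and 2416 in vehicle replicates 1 to 3 and 2572, 2886 and 2749.6 in stearic acid replicates 1 to 3. The small subunit genes summed to 1490.4, 1598 and 1443 in vehicle replicates 1 to 3 and 1566, 1752 and 1704 in stearic acid replicates 1 to 3. These sums therefore overlapped between the groups for each subunit.

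The ratio of large to small summed TPM varied less than the sums. By name it was 1.70, 1.69 and 1.67 in vehicle replicates 1 to 3 and 1.64, 1.65 and 1.61 in stearic acid replicates 1 to 3, a change in the mean of -3.10%, with no overlap. By structure it was 2.05, 2.02 and 2.01 in vehicle replicates 1 to 3 and 1.99, 1.99 and 1.97 in stearic acid replicates 1 to 3, a change of -2.16%, again with no overlap. As values over a chosen set of genes these sums and ratios carry no test.

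**Figure D3:**
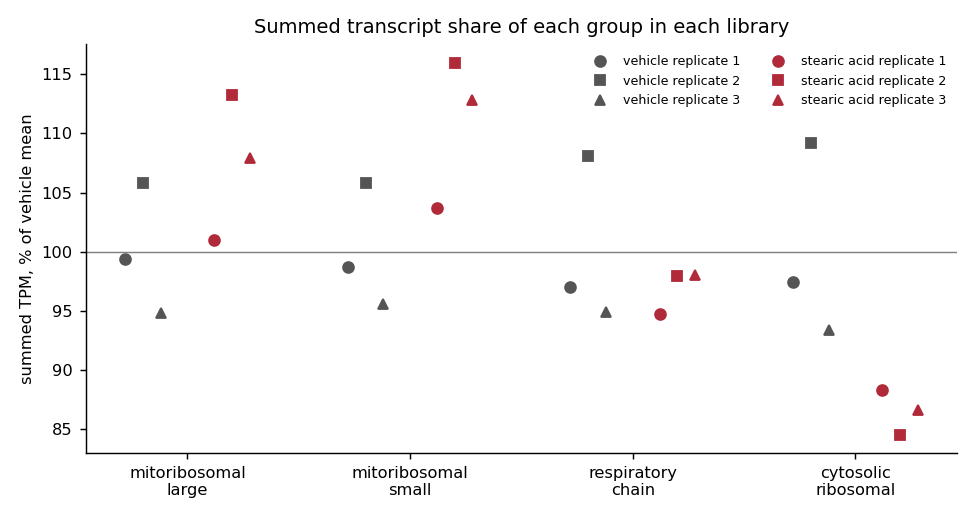
Summed TPM of 4 gene groups in each library as a percentage of the vehicle mean (vertical axis, not starting at 0; grey vehicle, red stearic acid; circles, squares and triangles are replicates 1, 2 and 3). Mitoribosomal sums ran from 101 to 113% (large) and 104 to 116% (small) of the vehicle mean with stearic acid, while cytosolic ribosomal protein sums ran from 84.5 to 88.3%; vehicle replicate 2 was the highest vehicle library in each group.

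The treated libraries were not alike in the size of the change. The median member change against the vehicle mean was log2 0.03, 0.22 and 0.16 in stearic acid replicates 1, 2 and 3, against 0.0036, -0.06 and -0.02 over all genes tested. Replicate 1 was the lowest of the 3 in 17 of the 20 genes that rose and in 61 of all 77, and replicate 2 was the highest in 18 and in 50. The summed macrophage markers followed the reverse order, being highest in replicate 1 and lowest in replicate 2; whether this order bears on the members was not tested.

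Vehicle libraries differed too. In the 24 members whose longest coding transcript in GENCODE M21 is under 1000 bases, vehicle replicate 2 was above the mean of the other vehicle libraries by a median of 9.20%, and it was the highest vehicle library in 20 of them. In the other 53 members the median was 4.16%, with 30 highest in that library. Of the shorter group 9 rose and of the longer 11, with medians of log2 0.19 and 0.14.

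By origin, 6 of 30 large subunit genes with bacterial counterparts rose (median log2 0.11) and 6 of 20 listed as specific to mitochondria (0.17, with Mrps18a and Mrps30 counted here by place). Mrps18a, 1 of the latter 6, descends from the gene of a bacterial protein, as given above. These 2 large subunit groups therefore do not separate the genes cleanly by origin. In the small subunit 7 of 17 with bacterial counterparts rose (0.20) and 1 of 9 specific to mitochondria, Mrps26 (0.09). In the order given, the shares of the 4 groups were 20%, 30%, 41.2% and 11.1%, against 12.8% of all genes tested. On omitting 1 library other than treated replicate 1, the counts ran from 0 to 2, 1 to 2, 1 to 5 and 0 to 0 for these 4 groups. On omitting treated replicate 1 they were 12, 10, 9 and 3. With the filter removed they were 1, 1, 3 and 0, and quantile normalization gave 3, 4, 7 and 1. Of all genes, 3.32% to 9.17% rose on omitting a library other than treated replicate 1, and 19.2% on omitting that one. Without the filter 3.11% rose, and with quantile normalization 14.5%.

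The genes lie on 17 chromosomes, with up to 10 on a single one (chromosome 11), of which 4 rose; of 8 on chromosome 17, 4 rose. Many share a start region with another gene. In GENCODE M21, 22 members had a tested coding gene that begins on the opposite strand within 1000 bases, at distances of 26 to 935 bases. In these 22 head-to-head pairs 7 members and 1 neighbour rose, and 0 members and 4 neighbours fell. Of all genes tested 12.8% rose and 11.9% fell. The member's estimate was above the neighbour's in 21 of 22 pairs, with medians of log2 0.22 for members and 0.0024 for neighbours.

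Mrps18b starts 45 bases from Ppp1r10, a regulatory subunit of a protein phosphatase, which went from 31.2 ± 2.66 to 33.6 ± 1.22 TPM and did not pass (log2 0.11, adjusted p = 0.34 by limma). Mrps12 starts 172 bases from Sars2, the mitochondrial seryl-tRNA synthetase, which did not pass (log2 0.08, adjusted p = 0.52 by limma). Next to Mrpl36 lies Ndufs6, a subunit of respiratory complex I, at 141 ± 21.5 and 141 ± 8.97 TPM. Both genes of 1 pair rose: Mrpl54 and Apba3, 26 bases apart (log2 0.35 and 0.31). Mrpl54 passed in 5 of 13 alternative fits, as detailed above, and Apba3 was lost on omitting vehicle replicate 2 (adjusted p = 0.0795 by limma), vehicle replicate 3 (0.105), stearic acid replicate 3 (0.0817) or the filter (0.0732). In another pair they moved apart: Mrpl57 rose while Ska3, a kinetochore gene 49 bases away, dropped to 30.5 ± 4.25 TPM from 40.6 ± 2.08 (log2 -0.41, adjusted p = 0.024 by limma). The other neighbours that fell were Ncapd2, a condensin subunit (log2 -0.61), Eme1, a DNA repair nuclease subunit (log2 -0.54), and Mitd1 (log2 -0.30), beside Mrpl51, Mrpl27 and Mrpl30, which did not pass. None of these 4 falls passed on omitting vehicle replicate 2, vehicle replicate 3 or the filter (adjusted p of 0.058 to 0.0997 by limma). Ska3, Ncapd2 and Mitd1 were also lost without vehicle replicate 1 (0.069, 0.0598 and 0.055), and Mitd1 without stearic acid replicate 2 or 3 (0.062 and 0.0797).

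**Figure D4:**
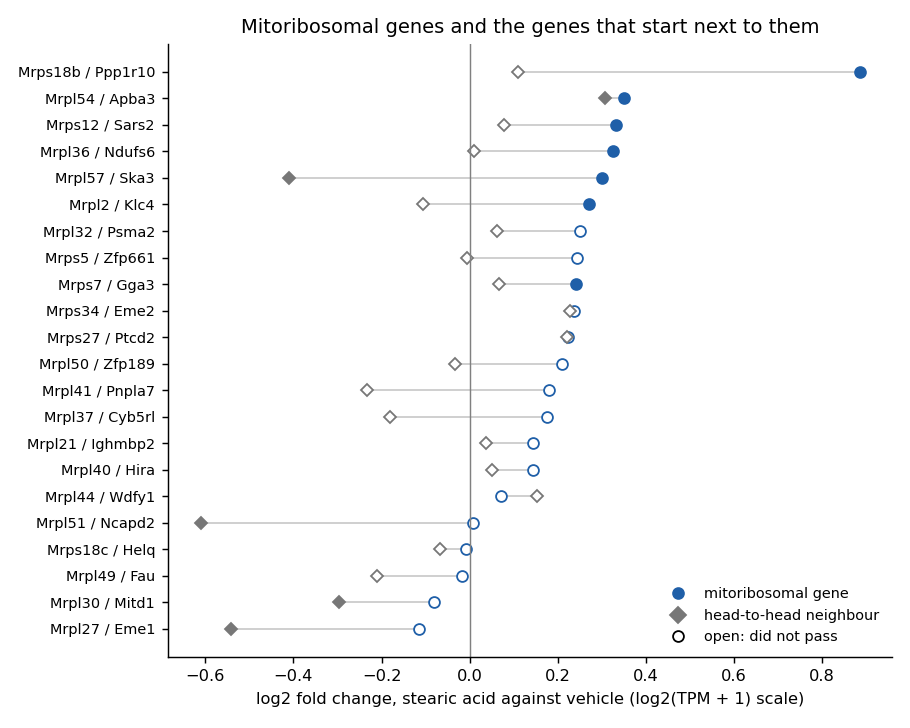
Log2 fold change with stearic acid (horizontal axis, log2(TPM + 1) scale) of 22 mitoribosomal genes (circles) and of the coding gene that starts next to each on the opposite strand (diamonds); filled symbols passed at an adjusted p of 0.05. In 21 of 22 pairs the circle lies to the right of its diamond.

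Overlap with other genes limits some values, since the sources used here do not say whether strand was used in counting. Exons of 23 members overlap those of another coding gene, and 5 of these were among the 20 that rose (Mrpl36, Mrpl43, Mrpl53, Mrps6 and Mrps7). Among the other 54 members 15 rose, with a median log2 fold change of 0.17.

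Promoters of the members were searched for short motifs of factors known for driving nuclear genes of mitochondrial proteins: CCGGAA, the core read by ETS factors such as GABP, GCGC followed by any 2 bases and GCGC for NRF1, and AANATGGC and CCATCTT for YY1. The search covered both strands from 250 bases before to 50 after each start in the RefSeq table (GRCm38.p6); the NRF1 motif was also counted in its form with AT in the middle, and the 2 YY1 motifs overlap where AAGATGGC occurs. The table matched 68 of the 77 genes, with 74 promoters. CCGGAA was in 56.8% of member promoters against 14.9% of all 32851 promoters and 28.6% of those of tested genes. The NRF1 motif was in 18.9%, 6.23% and 13.3% of the 3 sets, its form with AT in 4.05%, 0.971% and 2.11%, AANATGGC in 27.0%, 6.05% and 8.81%, and CCATCTT in 17.6%, 6.34% and 7.35%. Members that rose and members that did not pass held CCGGAA in 63.2% of 19 and 54.5% of 55 promoters. In the same order the NRF1 motif was in 21.1% and 18.2%, and its form with AT in 0% and 5.45%. AANATGGC was in 21.1% and 29.1%, and CCATCTT in 21.1% and 16.4%. These differences were not tested. At least 1 of the motifs was in 13 of the 17 genes that rose and had a promoter here, and in 55 of all 68 members with one. Mrps6, Mrps10, Mrps2 and Mrpl55 rose and held none. A match describes the letters in the window and is not a binding site.

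The following stretches of 30 bases show such matches in 8 genes that rose, with the matched letters in capitals, on the gene's own strand in GRCm38.p6. They are shown because these genes rose, with 1 stretch chosen for each gene. Some of the genes hold further matches, given below.
Mrps18b, chr17:35916391-35916420, minus strand: tgtcccgagcatgcgcagtcgctcTTCCGG
Mrpl12, chr11:120484546-120484575, plus strand: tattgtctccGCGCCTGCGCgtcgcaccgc
Mrpl53, chr6:83109037-83109066, plus strand: accgcggagccgCCGGAAgcggtccgttcc
Mrpl17, chr7:105811117-105811146, minus strand: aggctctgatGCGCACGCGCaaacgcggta
Mrps12, chr7:28741803-28741832, minus strand: taaggaggaaccCCGGAAggggctggaggt
Mrpl36, chr13:73330968-73330997, plus strand: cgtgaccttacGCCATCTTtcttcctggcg
Mrpl57, chr14:57826172-57826201, plus strand: tttgaatcctGCGCAGGCGCagaaggcgtc
Mrps18a, chr17:46110966-46110995, plus strand: cacacccctgctCCGGAAgcggaagtgcac
In Mrps18b the match TTCCGG, the reverse complement of CCGGAA, begins 44 bases after the start. In Mrpl12, Mrpl17 and Mrpl57 the NRF1 match begins 81, 49 and 57 bases before the start. The CCGGAA match begins 59 and 26 bases before the start in Mrpl53 and Mrps18a and 1 base after it in Mrps12. In Mrpl36 the letters GCCATCTT, which hold both YY1 motifs, begin 30 bases before it. Matches not shown include CCGGAA 237 bases before the start in Mrpl17 and 4 bases after it in Mrpl57. Mrpl53 has a second CCGGAA match, on the other strand, 15 bases before its start. Both YY1 motifs also occur in Mrps12, 199 bases before the start, and in Mrps18a, 11 bases after it.

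Longer stretches before the start, free of annotated exons, are given for a gene that rose and for one that did not pass, both with CCGGAA in capitals.
Mrpl43, chr19:45006443-45006557, minus strand: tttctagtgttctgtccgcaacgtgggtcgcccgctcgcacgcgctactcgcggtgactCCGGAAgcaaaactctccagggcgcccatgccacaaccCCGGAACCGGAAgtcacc
Mrpl48, chr7:100583131-100583280, minus strand: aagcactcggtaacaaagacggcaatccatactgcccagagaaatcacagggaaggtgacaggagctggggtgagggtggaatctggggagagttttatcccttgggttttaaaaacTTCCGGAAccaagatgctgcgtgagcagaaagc
In Mrpl43 (log2 0.27) the motif occurs 3 times, at 56, 18 and 12 bases before the start. In Mrpl48 (log2 -0.13) the letters TTCCGGAA read as the motif on both strands, at 33 and 31 bases before the most downstream of its 4 starts in the table. The 150 bases before the most upstream start of Mrpl48 (chr7:100608302-100608451) held none of the motifs. The motif was thus present before at least 1 start of genes with estimates on either side of 0.

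Further proteins of the mitoribosome carry other names. Of 6 such genes 1 rose, Gadd45gip1, which encodes a large subunit protein that was first described as a cell cycle regulator. It was at 24.1, 22.7 and 22.1 TPM in vehicle replicates 1 to 3 and 33.7, 39.5 and 33.9 TPM in stearic acid replicates 1 to 3. The groups did not overlap (log2 change 0.61 with an SE of 0.08, adjusted p = 0.0029 by limma), and it passed whichever library was omitted. Ict1, Aurkaip1, Ptcd3, Dap3 and Chchd1 did not pass, with log2 fold changes from -0.01 to 0.16. The ribosomal RNAs themselves, mt-Rnr1 of the small and mt-Rnr2 of the large subunit, were at 261 to 278 and 304 to 318 TPM in vehicle and at 262 to 315 and 309 to 362 TPM with stearic acid. Neither passed (limma-adjusted p of 0.61 and 0.49), and since the libraries were selected for poly(A), these levels need not follow the whole of each RNA. They were chosen after their values were seen.

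Of 28 genes for assembly of the mitoribosome and modification of its RNA, 6 rose and none fell (median log2 0.07; 12.8% of all genes rose). Afg3l2, a subunit of the inner membrane protease that matures Mrpl32, had the smallest p of the list: it was at 30.2, 27.2 and 29.1 TPM in vehicle replicates 1 to 3 and 43.97, 65.9 and 53.8 TPM in stearic acid replicates 1 to 3 (log2 change 0.88 with an SE of 0.13, adjusted p = 0.0042 by limma). It too passed whichever library was omitted. The others were Noa1 (log2 0.51), a GTPase, Rnmtl1 (log2 0.54) and Mrm1 (log2 0.29), methyltransferases of the ribosomal RNA, Wbscr16 (log2 0.46) and Ddx28 (log2 0.26), a helicase. On omitting vehicle replicate 1, 2 or 3 the count was 3, 1 and 1, on omitting stearic acid replicate 2 or 3 it was 4 and 2, and with no filter it was 2.

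Of 16 mitochondrial translation factors, 2 rose, or 12.5%, close to the 12.8% of all genes tested: the elongation factor Tsfm, from 22.6 ± 1.84 to 29.3 ± 2.40 TPM (log2 change 0.36 with an SE of 0.09, adjusted p = 0.023 by limma), and Lrpprc, which stabilises mitochondrial mRNAs (log2 0.23, adjusted p = 0.046 by limma). Neither passed on omitting vehicle replicate 2 or 3 (0.074 and 0.092 for Tsfm) or the filter. The median of the list was log2 0.08, and on omitting stearic acid replicate 1 the rises numbered 6.

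Of 14 genes for mitochondrial transcription and its nuclear regulators, 3 rose (21.4%, against 12.8% of all genes tested). Pprc1, a coactivator of the PGC-1 family, was at 19.1, 16.8 and 18.2 TPM in vehicle replicates 1 to 3 and 22.5, 35.4 and 29.7 TPM in stearic acid replicates 1 to 3 (log2 change 0.64 with an SE of 0.14, adjusted p = 0.016 by limma). Its treated libraries were ordered like those of most members that rose, with replicate 1 lowest and replicate 2 highest. Afg3l2 had the same order, and whether the order links Pprc1 to the members was not tested. Myc, a transcription factor of growth, rose from 14.1 ± 1.71 to 36.3 ± 16.9 TPM (log2 change 1.19 with an SE of 0.30, adjusted p = 0.023 by limma), and Esrra, a nuclear receptor that works with PGC-1 coactivators, by log2 0.34. Nrf1, Gabpa, Gabpb1 and Yy1, whose motifs were searched for above, did not pass (log2 0.06, -0.12, -0.05 and 0.17). On omitting vehicle replicate 1, 2 or 3 the count was 1, 0 and 0, and on omitting stearic acid replicate 3 or the filter it was 0; RPKM and median-of-ratios scaling gave 5.

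Of 17 mitochondrial aminoacyl-tRNA synthetases, 1 rose and 1 fell (5.88% each, against 12.8% and 11.9% of all genes tested). Yars2, which charges tyrosine tRNA, rose from 14.1 ± 0.893 to 19.7 ± 3.77 TPM (log2 change 0.44 with an SE of 0.13, adjusted p = 0.035 by limma). Lars2, which charges leucine tRNA, was at 155, 381 and 142 TPM in vehicle replicates 1 to 3 and 83.3, 101 and 74.1 TPM in stearic acid replicates 1 to 3. Vehicle replicate 2 was far above the other vehicle libraries, and the groups did not overlap (log2 change -1.24 with an SE of 0.32, adjusted p = 0.025 by limma). Yars2 passed on omitting stearic acid replicate 1 and under no other omission, and it missed the threshold with quantile normalization (adjusted p = 0.053 by limma) and without the filter (0.11). Without vehicle replicate 2 the change in Lars2 was log2 -0.79 (adjusted p = 0.036 by limma). Lars2 was lost on omitting vehicle replicate 3 (0.051), stearic acid replicate 3 (0.074) or the filter (0.10).

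**Figure D5:**
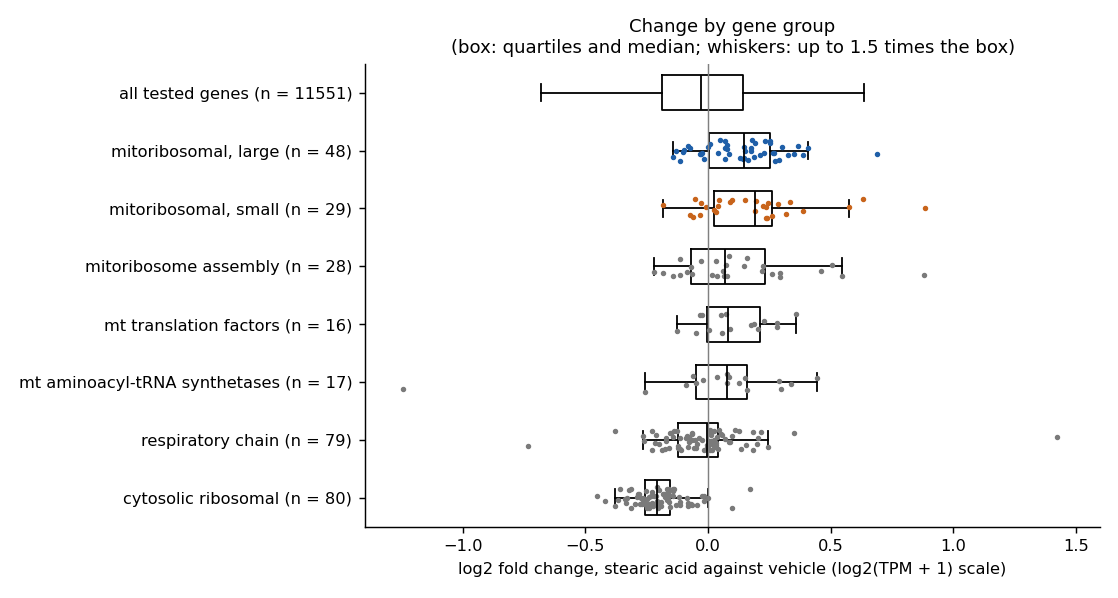
Log2 fold change with stearic acid (horizontal axis, log2(TPM + 1) scale) of all tested genes and of 7 gene groups; dots are genes, boxes give median and quartiles, and whiskers reach the last gene within 1.5 box lengths. Medians are 0.15 and 0.19 for large and small mitoribosomal genes, about 0 for respiratory chain genes and -0.21 for cytosolic ribosomal protein genes.

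Proteins of the cytosolic ribosome and of the respiratory chain were set beside the members as the most similar groups. Of 80 tested cytosolic ribosomal protein genes 0 rose and 24 fell (median log2 -0.21), or 0% and 30%, against 12.8% and 11.9% of all genes tested. Their summed TPM changed by -13.5%, with no overlap between the groups. The 24 falls became 1 with RPKM, 2 with median-of-ratios scaling and 0 without the filter. They numbered 24 with a pseudocount of 0.1 TPM, 25 with a filter of 5 TPM, 23 with quantile normalization and 24 with a replicate block. On omitting vehicle replicate 1, 2 or 3 they were 2, 0 and 6, and on omitting stearic acid replicate 1, 2 or 3 they were 37, 12 and 0. The median stayed below 0 in every fit, from log2 -0.24 without vehicle replicate 3 to -0.13 without vehicle replicate 2. Of all genes, 29% changed in either direction with RPKM, 28.6% with median-of-ratios scaling and 4.75% without the filter. On omitting vehicle replicate 1, 2 or 3 this share was 9.29%, 4.76% and 5.44%. On omitting stearic acid replicate 1, 2 or 3 it was 43.4%, 17.3% and 8.7%. Of 79 tested respiratory chain subunits encoded in the nucleus 2 rose, 3 fell and 74 did not pass (2.53% rose and 3.80% fell, median log2 -0.0032). The differences between these groups and the mitoribosomal genes were not tested.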

How the data were processed

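RNA of 3 vehicle and 3 stearic acid samples was sequenced from libraries made with a stranded kit that selects poly(A) RNA, per the labels' protocols. The authors deposited 1 table per library with TPM and RPKM values for 36333 genes, per the file headers. DRAGEN and the mouse build GRCm38 (mm10) are named in the submitters' processing notes; the annotation, counting rule and strand setting were not given in the sources used here. The deposited RPKM values were a fixed multiple of TPM within each library. TPM and RPKM are shares of a library, so that a rise in some abundant genes lowers all others. About 38.3 to 43.2% of the low values checked came out as whole reads (within 0.02 reads), too few for a test on counts.

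The 11551 genes whose mean reached 1 TPM were tested on log2(TPM + 1) with limma 3.58.1 (trend, R 4.3.3) and Benjamini-Hochberg adjustment at 0.05, 3 libraries against 3. Fold changes are on that scale, which is compressed at low values. The script was first tested on simulated data. The members and gene lists were chosen with earlier results of these data known. Named were the 5 highest members of each subunit, the 6 largest changes in each direction, up to 6 with the smallest p, the Mrps18 family, and from each other list the gene with the smallest p in each direction. The remaining genes that changed, the neighbours of members, Slc5a3, the regulators whose motifs were searched and the ribosomal RNAs were named after their values were seen. Positions and promoters are from RefSeq on GRCm38, neighbours and exon overlaps from GENCODE M21. Alternatives were another pseudocount (0.1 TPM), another filter (5 TPM) or none, RPKM, median-of-ratios scaling, quantile normalization, a replicate block, sorting by structure, and leaving out each library.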

Additional observations from a re-analysis of the deposited data

How the results depend on the processing

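With no filter on low values, 21632 genes were tested and 5 members rose, 2 in the large and 3 in the small subunit. Quantile normalization left 15 members, 7 in the large and 8 in the small subunit, and median-of-ratios scaling left 16. Leaving out 1 library at a time gave 2 to 35 members, 1 to 20 large and 1 to 15 small subunit genes that rose, and a median difference, large minus small, of -0.075 to -0.011; these fits rest on 5 libraries instead of 6. Sorting by structure moved that difference to -0.00033 and the ratio of summed TPM to 2.02 in vehicle and 1.98 with stearic acid. Mrps18c, near 0, turned positive with RPKM (0.035) and median-of-ratios scaling (0.015) and ranged from -0.071 to 0.11 when libraries were left out, turning positive without vehicle replicate 2 (0.11) and stearic acid replicate 1 (0.05). Mrpl42 ranged from -0.0055 to 0.10, turning negative without vehicle replicate 3 (-0.0012) and stearic acid replicate 2 (-0.0055), and Mrps16 from -0.12 to 0.018, turning positive without vehicle replicate 2 (0.018). The cause of these changes was not tested. Samples with the same replicate number correlated at 0.07, 0.288 and 0.039 in their deviations from the group means, so the numbers were not taken to pair them, and vehicle replicate 3 correlated best with stearic acid replicate 1 (0.275). A replicate block gave 24 members that rose, the 20 among them. No member fell under any of these alternatives. With 3 libraries a group, the precision rests on few samples, and depth adds counting error in the lowest members.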
